A study of Mus musculus with 32 samples.

Results

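The 10 genes described here act in the uptake, storage, movement and export of iron by macrophages, namely Slc40a1 (NM_016917), Tfrc (NM_011638), Fth1 (NR_073181), Ftl1 (NM_010240), Slc11a1 (NM_013612), Slc11a2 (NM_008732), Slc39a14 (NM_144808), Slc25a37 (NM_026331), Ireb2 (NM_022655) and Steap4 (NM_054098). They were taken by name from the 25067 genes of the deposited count table, and each gene was represented by its transcript with the highest mean count, whose RefSeq identifier is given in brackets. RNA-seq was done on bone marrow-derived macrophages (BMDMs) from BMDM-WT and BMDM-Nur77-KO mice at 0, 1, 5 and 18 h after addition of 100 ng/ml lipopolysaccharide (LPS), a bacterial cell wall component that activates macrophages. There were 4 libraries in each of the 8 groups and 32 in all. The mice were males of the C57Bl6/J strain, 6-12 weeks old, and the wild-type animals were littermates of the knockouts. The knockout (genotype "cre" in the labels) is of the whole body, made by crossing mice with loxP sites in Nr4a1, the gene of the nuclear receptor Nur77, to mice carrying CMV-Cre, after which the Cre transgene was bred out. Cells of all groups were grown for 7 days with L929-conditioned medium, and the 0 h groups were left untreated. How many animals stand behind the 4 replicates is not given in the sources used here, so p-values measure only the spread between these samples.

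Macrophages of spleen, liver and bone marrow recover iron from old red blood cells and return it to the blood. Ferroportin, encoded by Slc40a1, is the exporter, the transferrin receptor (Tfrc) brings in transferrin-bound iron, and ferritin, a shell of heavy (Fth1) and light (Ftl1) chains, stores it. Messages of several of these genes carry iron-responsive elements, short hairpins to which the iron regulatory proteins bind when iron is scarce, and Ireb2 encodes such a protein: binding in the 5′ UTR blocks translation, and binding in the 3′ UTR protects the message. During infection macrophages are known to retain iron, which withholds it from microbes. RNA-seq reads the message level only and says nothing of translation.

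The hairpins are shown because they are a sequence feature that was matched in 4 of the 10 genes and differs in place between them. They were searched in GENCODE transcripts of build GRCm38 (mm10) as a C, 5 stem bases, the 6-base loop CAGTGN and 5 bases that pair with the stem. Each is printed 5′ to 3′ on the strand of the transcript, with DNA letters and the loop in capitals.
Slc40a1, 5′ UTR, chr1:45925465-45925493, minus strand: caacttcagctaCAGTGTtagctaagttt
Ftl1, 5′ UTR, chr7:45459779-45459807, minus strand: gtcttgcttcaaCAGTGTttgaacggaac
Fth1, 5′ UTR, chr19:9982732-9982760, plus strand: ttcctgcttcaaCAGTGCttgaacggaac
Tfrc, 3′ UTR, chr16:32631219-32631247, plus strand: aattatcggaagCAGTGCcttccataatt
Tfrc, 3′ UTR, chr16:32631598-32631626, plus strand: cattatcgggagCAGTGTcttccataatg
Tfrc, 3′ UTR, chr16:32631663-32631691, plus strand: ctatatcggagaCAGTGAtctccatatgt
Tfrc, 3′ UTR, chr16:32631710-32631738, plus strand: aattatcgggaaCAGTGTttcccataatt

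The exporter and both ferritin chains held 1 match in the 5′ UTR, and Tfrc held 4 in the 3′ UTR. Of 9783 tested genes with a coding GENCODE transcript, 12 (0.123%) had a match in the 5′ UTR and 70 (0.716%) in the 3′ UTR, and Tfrc was the only gene with more than 1 in the 3′ UTR. A match is a description of the letters, and a gene without a match may still hold a hairpin of another form.

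The kept transcripts of a library summed to between 8742362 and 15780926 tags. Nr4a1 itself was at 4.42 to 6.92 CPM in BMDM-Nur77-KO against 15.5 to 25.5 in BMDM-WT at 0 h. After 1 h it was at 146 to 244 against 358 to 483 CPM, and the genotypes overlapped at neither time. CPM are counts relative to library size, scaled by TMM (trimmed mean of M-values). The 7 macrophage markers summed to between 10893 and 18233 CPM over the libraries, and in BMDM-Nur77-KO at 18 h the sums were lower (10893 to 12348) than in BMDM-WT (13866 to 14308). Mertk alone went the other way, with means at 18 h of 514 CPM in BMDM-Nur77-KO and 317 in BMDM-WT. Mean Cd68 was close, at 1362 and 1408 CPM. The 9 erythroid markers, of 10 looked for, summed to at most 1.2 CPM. Neutrophil markers summed to between 17.6 and 57.2 CPM (at 1 h 34.4 to 44.6 in BMDM-WT and 46.1 to 56.0 in BMDM-Nur77-KO), and B cell, fibroblast and mast cell markers to at most 4.65 CPM. In some libraries GC-rich transcripts were low as a group relative to GC-poor ones. This difference between the deciles of genes highest and lowest in GC, taken as a log2 deviation from the mean of the library's own group, was -1.10 in BMDM-Nur77-KO replicate 1 at 5 h, -0.82 in BMDM-Nur77-KO replicate 4 at 18 h and -0.57 in BMDM-WT replicate 3 at 18 h. It was 0.62 and 0.52 in BMDM-Nur77-KO replicates 4 and 3 at 5 h, and between -0.28 and 0.41 in the other 27 libraries. Among the transcripts tested, Ftl1 was at the 89.6 percentile of GC content, Slc11a1 at the 76.0, Fth1 at the 68.4 and Slc11a2 at the 60.8, and Slc40a1 was at the 15.6, Tfrc at the 3.97 and Ireb2 at the 2.46. Where leaving out BMDM-Nur77-KO replicate 1 at 5 h or replicate 4 at 18 h ended a call of the iron handling genes or made a called value much smaller, that value is given too. The GC correction used below was fitted against the mean of all libraries and not of the own group. It therefore also takes out differences between groups that go with GC content.

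LPS moved most of the iron genes, each on its own course, and the genotypes followed similar courses. A gene was counted as changed at an adjusted p under 0.05 in the quasi-likelihood test of edgeR, adjusted over 11186 genes by the method of Benjamini and Hochberg. Steap4 was too low for this test and is described apart, which leaves 9 genes. At 1 h of LPS none of the 9 had changed in BMDM-WT, where 20.2% of all tested genes had (1 of 9, Ireb2, had an unadjusted p under 0.05 in edgeR, and DESeq2 called none), and 2 had changed in BMDM-Nur77-KO, where 12.2% of all genes had. At 5 h, 8 of 9 had changed in BMDM-WT (4 rose and 4 fell), against 69.8% of all genes, and 9 of 9 in BMDM-Nur77-KO (5 rose and 4 fell), against 71.3%. At 18 h, 7 of 9 had changed in BMDM-WT (4 rose and 3 fell), against 66.5% of all genes, and 6 of 9 in BMDM-Nur77-KO (4 rose and 2 fell), against 69.3%. Between 5 and 18 h, 8 of 9 changed in each genotype, against 69.4% of all genes in BMDM-WT and 69.2% in BMDM-Nur77-KO. At 5 and 18 h most tested genes of any kind were called, so these counts do not set the iron genes apart. The comparisons with 0 h share the 0 h libraries and are not independent of each other.

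**Figure D1:**
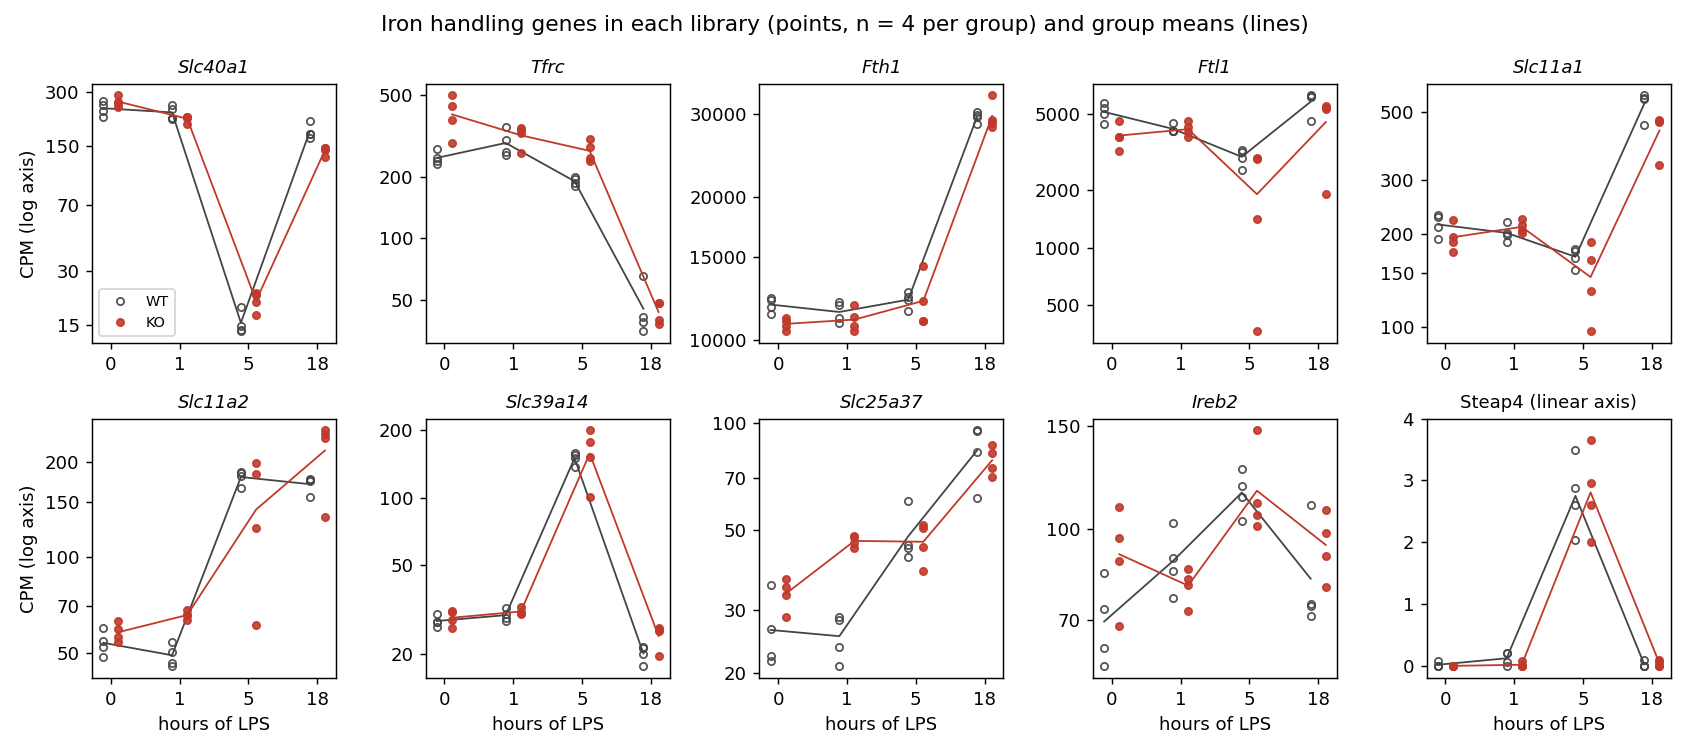
Level of each of the 10 genes in CPM (log axis, linear for Steap4) against hours of LPS, with open grey points for the 4 BMDM-WT libraries, red points for the 4 BMDM-Nur77-KO libraries and lines through the group means. Slc40a1 drops from 217 to 265 CPM at 0 h to 13.9 to 19.1 CPM at 5 h in BMDM-WT and returns to 166 to 205 at 18 h, Tfrc is lowest at 18 h, and Fth1 and Slc11a1 are highest there.

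Compared per transcript length, the ferritin chains stood far above the rest. In BMDM-WT at 0 h the level per kilobase (RPKM, mean ± SD, n = 4) was 7953 ± 273 for Fth1 and 5324 ± 576 for Ftl1. The kept Fth1 row is a non-coding RefSeq transcript of 1494 bases, and the coding transcript of 929 bases, which had almost the same counts, gave 12784 ± 434 RPKM. The next levels were 92.9 ± 7.43 RPKM for Slc11a1, 71.9 ± 6.24 for Slc40a1 and 50.5 ± 3.97 for Tfrc. Slc11a2 was at 17.8 ± 1.6, Ireb2 at 12 ± 2.0, Slc25a37 at 6.31 ± 1.5 and Slc39a14 at 5.69 ± 0.317 RPKM. At 18 h in BMDM-WT the level of Fth1 was 19791 ± 494 RPKM, and the gene alone took 2.63% to 2.92% of all kept tags of a library, against 1.43% to 1.48% at 0 h.

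Slc40a1, the only known cellular iron exporter, fell more than any other of the 9 genes at 5 h and had largely returned by 18 h. In BMDM-WT its level in the 4 libraries was 253, 217, 265 and 234 CPM before LPS, 254, 239.5, 211 and 214 after 1 h, 15, 13.9, 19.1 and 14.1 after 5 h and 175, 174, 205 and 166 after 18 h. In BMDM-Nur77-KO it was 285, 248, 263 and 259 CPM before LPS, 216, 215, 199 and 218 after 1 h, 22.1, 17.1, 22.8 and 20.3 after 5 h and 146, 130.3, 146 and 142 after 18 h. Every 5 h library lay below every library of the other times, and every 18 h library of BMDM-Nur77-KO lay below every one of BMDM-WT. Relative to 0 h the log2 fold change (± SE) at 5 h was -3.96 ± 0.11 in BMDM-WT and -3.68 ± 0.10 in BMDM-Nur77-KO, or 0.0641 and 0.0779 of the 0 h level, with adjusted p = 3.82e-24 and 1.04e-23 in edgeR. From 5 to 18 h it rose 11.6-fold in BMDM-WT and 6.88-fold in BMDM-Nur77-KO. At 18 h it was still below 0 h in both (log2 fold change -0.43 ± 0.091 and -0.90 ± 0.092, edgeR adjusted p = 1.43e-04 and 4.15e-10).

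The genotypes differed in Slc40a1 in opposite directions at 5 and at 18 h. At 0 and 1 h the 2 sets of libraries overlapped, with 95% intervals of the log2 difference, BMDM-Nur77-KO minus BMDM-WT, of -0.056 to 0.30 and -0.29 to 0.062. At 5 h Slc40a1 was 1.32-fold higher in BMDM-Nur77-KO (log2 0.40 ± 0.11, edgeR adjusted p = 0.0076), although the lowest knockout library, at 17.1 CPM, lay below the highest wild-type library, at 19.1 CPM. This call was lost when the fit used only the 8 libraries compared (adjusted p = 0.149) and when counts were corrected for GC content (log2 0.23, adjusted p = 0.178). At 18 h BMDM-Nur77-KO was lower, at 0.784 of the BMDM-WT level (log2 -0.35 ± 0.091, edgeR adjusted p = 0.00505). This call was kept without any 1 library and under all alternatives except a limit of 0.58 on the log2 fold change. The summed macrophage markers, though not Mertk, were also lower in BMDM-Nur77-KO at 18 h, as given above, and their part in the Slc40a1 difference was not tested. The change from 0 to 18 h itself differed between the genotypes by -0.47 ± 0.13 on the log2 scale (interaction in edgeR, adjusted p = 0.0147). The corrected counts gave -0.40, adjusted p = 0.0611 for that difference. At 1 h the level in BMDM-Nur77-KO was below its own 0 h level (log2 -0.32 ± 0.091, edgeR adjusted p = 0.0166). That call was lost without replicate 1 at 0 h (adjusted p = 0.0725) or replicate 3 at 1 h (adjusted p = 0.0657) and with the GC correction (adjusted p = 0.0836). In the order of group means, the 5 groups from BMDM-Nur77-KO at 0 h down to BMDM-WT at 18 h each overlapped the next, BMDM-Nur77-KO at 18 h lay apart from its neighbours, and the 5 h groups overlapped each other. The genes whose 8 group means followed Slc40a1 most closely on the log2 scale were Atg2b, Wipf1 and Zfp369 (Pearson r = 0.998, 0.997 and 0.997 over 8 groups that share the same libraries).

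Tfrc, which takes up transferrin-bound iron, took another course: it was lowest at 18 h, and BMDM-Nur77-KO started from a higher level. Its level in BMDM-WT was 246, 275, 237 and 230.4 CPM before LPS, 254, 264, 301 and 350.2 after 1 h, 196, 181, 185 and 198 after 5 h and 41.3, 35, 65.5 and 38.8 after 18 h. The BMDM-Nur77-KO libraries held 499.5, 378, 444 and 294 CPM before LPS, 262, 339.9, 327 and 346 after 1 h, 305, 247, 279 and 239 after 5 h and 39.8, 38, 48.4 and 48 after 18 h. All 4 knockout libraries lay above all 4 wild-type libraries at 0 h and at 5 h, the genotypes overlapped at 1 and 18 h, and replicate 3 was the highest of the BMDM-WT libraries at 18 h. At 0 h Tfrc was 1.63-fold higher in BMDM-Nur77-KO (log2 0.71 ± 0.15, edgeR adjusted p = 0.00183). This call was kept under all alternatives and without any 1 library, and its size fell to log2 0.44, adjusted p = 0.00333 with the GC correction. At 5 h it was 1.41-fold higher (log2 0.49 ± 0.15, edgeR adjusted p = 0.0205). This call was lost with the GC correction (adjusted p = 0.11), without BMDM-Nur77-KO replicate 1 (adjusted p = 0.0744) and without BMDM-WT replicate 2 (adjusted p = 0.0557).

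From 0 to 18 h Tfrc fell to 0.183 of its level in BMDM-WT and to 0.108 in BMDM-Nur77-KO (log2 -2.45 ± 0.16 and -3.21 ± 0.17, edgeR adjusted p = 2.41e-14 and 4.52e-17), so that both genotypes ended at about the same level. The difference between these changes was -0.76 ± 0.22 (interaction in edgeR, adjusted p = 0.0227). It was lost without BMDM-Nur77-KO replicate 1 or 3 at 0 h, BMDM-Nur77-KO replicate 2 at 18 h or BMDM-WT replicate 3 at 18 h (adjusted p = 0.0705, 0.0528, 0.0542 and 0.0888), where the last also moved it to -0.52. It was also lost with only the libraries compared (adjusted p = 0.0607) and with the replicate block within genotype (adjusted p = 0.051). At 5 h the fall was smaller, -0.38 ± 0.15 in BMDM-WT and -0.59 ± 0.15 in BMDM-Nur77-KO (edgeR adjusted p = 0.0275 and 9.34e-04). In BMDM-WT it was lost under DESeq2's size factors (-0.29, adjusted p = 0.0956) and without replicate 2 at 0 h, replicate 2 at 5 h or replicate 3 at 5 h (adjusted p = 0.0806, 0.0618 and 0.0554). At 1 h in BMDM-Nur77-KO the change did not pass (-0.34 ± 0.15, adjusted p = 0.184), but did without replicate 4 at 0 h (-0.47, adjusted p = 0.0387). Tfrc is a gene that dividing cells use. The 8 cycling-cell markers, all of which were in the table, summed to 993 to 1082 CPM in BMDM-WT and 868 to 949 in BMDM-Nur77-KO at 0 h. At 18 h they summed to 355 to 423 and 277 to 348 CPM. Pcna made up most of these 18 h sums, with means of 317 CPM in BMDM-WT and 218 in BMDM-Nur77-KO. Between the genotypes the markers did not all go in the same direction at 18 h, as mean Mki67 was 33.3 and 54.9 CPM. In BMDM-WT mean Pcna fell from 495 CPM at 0 h to 317 at 18 h, and mean Top2a from 170 to 8.01. The part of the cycling-cell markers in the fall of Tfrc was not tested, and in bulk samples fewer cells of a kind and less RNA per cell cannot be told apart. In the order of group means each group from BMDM-Nur77-KO at 0 h down to BMDM-WT at 0 h overlapped the next, BMDM-WT at 5 h lay apart, and the 18 h groups overlapped each other. The genes closest to Tfrc in pattern over the 8 groups were B3glct, Abca9 and Abcg2 (Pearson r = 0.998, 0.998 and 0.997).

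Slc40a1 and Tfrc fell at different times, and their ratio within a library went up at 5 h and down at 18 h. Tfrc counts were 0.896 to 1.26 times those of Slc40a1 in the BMDM-WT libraries at 0 h, 9.69 to 14.1 times at 5 h and 0.200 to 0.319 times at 18 h. In BMDM-Nur77-KO the ratios were 1.14 to 1.75, 11.8 to 14.5 and 0.272 to 0.337. These are ratios of counts, not of levels per length.

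Fth1, the ferritin heavy chain with ferroxidase activity, stayed near its starting level for 5 h and rose by 18 h. Its level at 18 h was 29907, 30279, 28561 and 29522 CPM in BMDM-WT and 28165, 28717, 29052 and 32812 in BMDM-Nur77-KO. At 0 h it was 11372, 11736, 12170.5 and 12246 CPM in BMDM-WT and 10429, 10722, 10980.3 and 11140.2 in BMDM-Nur77-KO. At 1 and 5 h all 16 libraries lay between 10445 and 14354 CPM, the highest of them BMDM-Nur77-KO replicate 1 at 5 h. The rise from 0 to 18 h was 2.49-fold in BMDM-WT (log2 1.32 ± 0.073) and 2.74-fold in BMDM-Nur77-KO (log2 1.46 ± 0.073) (edgeR adjusted p = 3.67e-16 and 2.36e-17). The 18 h libraries of either genotype lay far above all others and overlapped each other. At 0 h every knockout library was below every wild-type library, but the difference did not pass the test (log2 -0.14 ± 0.072, adjusted p = 0.224), and the intervals at 1, 5 and 18 h were -0.19 to 0.088, -0.15 to 0.13 and -0.14 to 0.15. A small rise at 5 h in BMDM-Nur77-KO (log2 0.16 ± 0.072, edgeR adjusted p = 0.0463) was lost without replicate 1 at 5 h (0.069, adjusted p = 0.331), without replicate 2 at 5 h (adjusted p = 0.0705), without any 1 of the 0 h replicates (adjusted p = 0.0507 to 0.105) and with only the libraries compared (adjusted p = 0.135). It was kept with the GC correction, and over the alternatives its estimate ran from 0.069 to 0.45. In BMDM-WT the 5 h change did not pass (0.034 ± 0.072, edgeR adjusted p = 0.686) but did with the GC correction (0.26, adjusted p = 0.0331). Behind the 18 h groups, each of the 6 other group means overlapped the next in range. Acp2, Gstm1 and G6pdx had the patterns most like Fth1 (Pearson r = 0.998, 0.996 and 0.994 over 8 groups).

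Ftl1, the light chain that helps form the iron core, was lower at 5 h and back near its starting level at 18 h, but varied much between libraries. In BMDM-WT it was 5034, 4434, 5421 and 5727 CPM before LPS, 4522, 4079, 4078 and 4112 after 1 h, 2958, 3194, 3266 and 2564 after 5 h and 6232, 6289.9, 4595 and 6198 after 18 h. The knockout libraries held 3823, 3210, 3824 and 4637 CPM before LPS, 4622, 4280.1, 3786 and 4049 after 1 h, 363, 1407, 2942 and 2914 after 5 h and 5370, 5428, 5512 and 1913 after 18 h. The 363 CPM of replicate 1 at 5 h and the 1913 CPM of replicate 4 at 18 h came from the libraries with the steepest GC trend, and the part of that trend in the Ftl1 values was not tested. The fall at 5 h was -0.78 ± 0.34 on the log2 scale in BMDM-WT (edgeR adjusted p = 0.0395) and -1.02 ± 0.34 in BMDM-Nur77-KO (adjusted p = 0.00831). In BMDM-WT all 5 h libraries lay below all 0 h libraries. The BMDM-WT call was lost without any 1 of replicates 1, 3 and 4 at 0 h or of the 4 replicates at 5 h (adjusted p = 0.0532 to 0.0914). It was also lost under DESeq2 (adjusted p = 0.0545) and with the GC correction (-0.43, adjusted p = 0.117). In BMDM-Nur77-KO it shrank to -0.68, adjusted p = 0.0108 without replicate 1 at 5 h, and was lost with only the libraries compared (adjusted p = 0.12). From 5 to 18 h Ftl1 rose in both genotypes (0.96 ± 0.34 and 1.26 ± 0.34, edgeR adjusted p = 0.0129 and 0.00169), in BMDM-Nur77-KO not with only the libraries compared (adjusted p = 0.0918). Without replicate 1 at 5 h the rise in BMDM-Nur77-KO was 0.91 (edgeR adjusted p = 0.001).

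No genotype difference in Ftl1 passed the test, and the intervals were wide. In order of time they were -1.07 to 0.24, -0.66 to 0.65, -1.31 to 0.007 and -1.01 to 0.30. Leaving out the 2 libraries with the steepest GC trend narrowed the spread, and the 0 h difference then passed (-0.41, adjusted p = 0.0351), as it did with only the libraries compared (-0.38, adjusted p = 0.0186). At 5 h the difference passed without BMDM-Nur77-KO replicate 3 (-0.94, adjusted p = 0.0418) or replicate 4 (-0.93, adjusted p = 0.0425), the libraries at the other end of the GC trend. Without replicate 1, at the low end of it, it was -0.31, adjusted p = 0.428, and at 18 h without replicate 4 it was -0.10, adjusted p = 0.897. From 0 to 18 h the change in BMDM-Nur77-KO did not pass (0.23 ± 0.33, adjusted p = 0.546) but did without those 2 libraries (0.49, adjusted p = 0.0057). Without replicate 4 at 18 h alone it did not pass (0.49, adjusted p = 0.176). In BMDM-WT the change at 1 h passed only with the libraries compared alone (-0.28, adjusted p = 0.0119). The ratio of Fth1 to Ftl1 counts moved from 2.14 to 2.65 in the BMDM-WT libraries at 0 h to 3.87 to 4.49 at 5 h and 4.76 to 6.22 at 18 h. In BMDM-Nur77-KO it was 2.4 to 3.34 at 0 h, 3.74 to 39.5 at 5 h and 5.25 to 17.1 at 18 h, with the highest values in replicate 1 at 5 h and replicate 4 at 18 h. Both ferritin genes have processed pseudogenes, and reads that map equally well to these were dropped by the authors' filter on mapping quality, so their levels are uncertain to that extent.

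**Figure D2:**
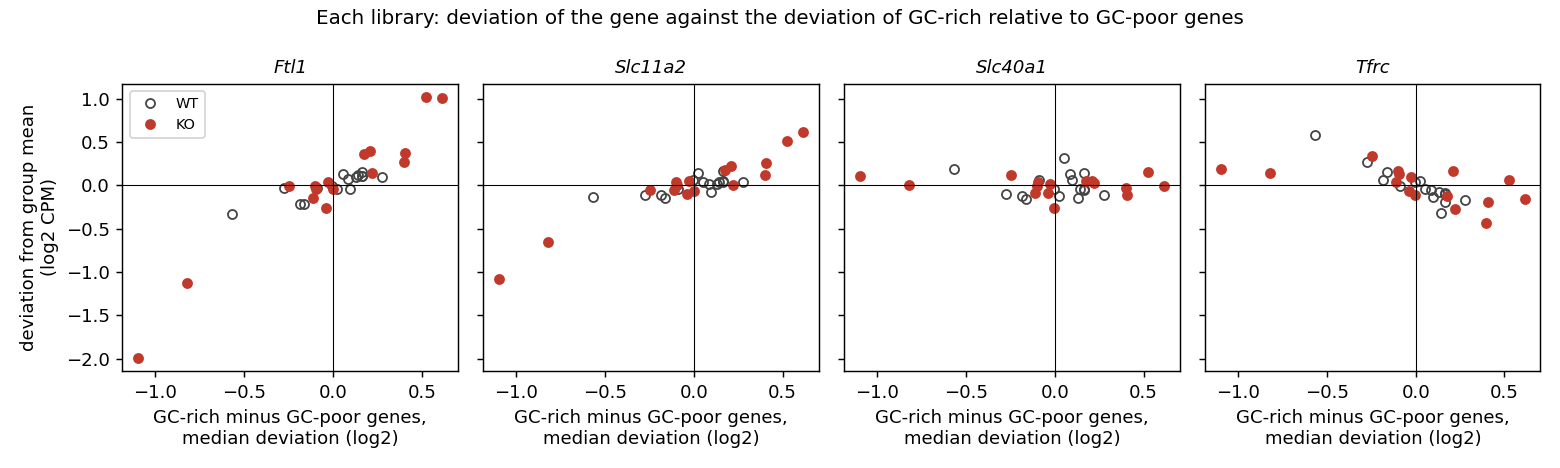
For each of the 32 libraries, the log2 deviation of a gene from its group mean (vertical axis) against the median log2 deviation of the GC-richest decile of genes minus that of the GC-poorest (horizontal axis), in open grey for BMDM-WT and red for BMDM-Nur77-KO. Ftl1 and Slc11a2 are lowest in BMDM-Nur77-KO replicate 1 at 5 h and replicate 4 at 18 h, the points at -1.10 and -0.82 on the horizontal axis, while Slc40a1 stays between -0.26 and 0.31 of its group means.

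Slc11a1, which encodes Nramp1, the metal pump of the phagosome membrane, rose late. It was at 215 ± 17.2 CPM (mean ± SD, n = 4) at 0 h in BMDM-WT, 169 ± 11.6 at 5 h and 531 ± 51.9 at 18 h. In BMDM-Nur77-KO it was at 195 ± 19.9, 145 ± 40.2 and 434 ± 65.5 CPM at these times. The rise from 0 to 18 h was 2.47-fold and 2.22-fold (edgeR adjusted p = 4.43e-10 and 4.79e-09), and all 18 h libraries lay above all earlier ones. At 5 h it fell, with log2 changes of -0.35 ± 0.13 in BMDM-WT and -0.43 ± 0.13 in BMDM-Nur77-KO (edgeR adjusted p = 0.0195 and 0.00472). The BMDM-WT call was lost without replicate 4 at 0 h (adjusted p = 0.0532), and without replicate 4 at 5 h (adjusted p = 0.0617). It was lost as well with DESeq2's size factors (adjusted p = 0.0749) and with the GC correction (-0.10, adjusted p = 0.163), and the BMDM-Nur77-KO call, which was -0.28, adjusted p = 0.0295 without replicate 1 at 5 h, with only the libraries compared (adjusted p = 0.104). At 0 and 1 h the genotype intervals were -0.39 to 0.12 and -0.19 to 0.32. After 5 and 18 h they were -0.48 to 0.040 and -0.55 to -0.036, and none passed the adjusted threshold. The difference at 5 h passed without BMDM-Nur77-KO replicate 3 (-0.37, adjusted p = 0.0283) and was -0.067, adjusted p = 0.753 without replicate 1. The difference at 18 h passed with the GC correction (-0.19, adjusted p = 0.0272).

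Slc11a2, which encodes DMT1, the transporter that moves iron out of endosomes, rose at 5 h and stayed up. In BMDM-WT it was 52.1, 48.4, 54.3 and 60 CPM before LPS, 50.2, 46.4, 54.2 and 45.2 after 1 h, 187, 181, 185 and 166 after 5 h and 176, 175, 156 and 174 after 18 h. For BMDM-Nur77-KO the values were 55.9, 54, 59.3 and 62.7 CPM before LPS, 65.8, 68.1, 63.3 and 65.7 after 1 h, 61, 124, 184 and 198 after 5 h and 238, 252, 246 and 134 after 18 h. At 5 h the knockout libraries spread widely, with replicate 1 at the level of 1 h, and at 18 h replicates 1, 2 and 3 lay above every wild-type library while replicate 4 lay below them all. Relative to 0 h the gene rose 3.35-fold at 5 h and 3.18-fold at 18 h in BMDM-WT, and 2.44-fold and 3.75-fold in BMDM-Nur77-KO (edgeR adjusted p = 9.49e-09, 2.43e-08, 1.91e-06 and 1.55e-09). It was higher at 18 h than at 5 h in BMDM-Nur77-KO (0.62 ± 0.20, edgeR adjusted p = 0.00719), but by less without replicate 1 at 5 h (0.37, adjusted p = 0.0222) and not with only the libraries compared (adjusted p = 0.151). Slc11a2 has 3 RefSeq transcripts that share exons and were counted separately. From 5 to 18 h in BMDM-WT the one used here was at 179.5 ± 9.48 and 170.4 ± 9.95 CPM (mean ± SD, n = 4), and the next was at 184 ± 9.94 and 139 ± 8.23 CPM.

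The genotype difference in Slc11a2 depended on the 2 libraries with the steepest GC trend. With all 32 libraries no difference passed, with log2 0.11 ± 0.20, 0.42 ± 0.20, -0.34 ± 0.20 and 0.35 ± 0.20 in order of time (edgeR adjusted p = 0.752, 0.287, 0.205 and 0.221). At 1 h all knockout libraries nevertheless lay above all wild-type libraries. Without those 2 libraries, neither of which is a 1 h library, the BMDM-Nur77-KO level of Slc11a2 passed as higher after 1 h (0.42, adjusted p = 0.00276) and 18 h (0.53, adjusted p = 9.71e-05). The change from 0 to 18 h then also differed between the genotypes (0.41, adjusted p = 0.0328). Neither 18 h result passed when replicate 4 at 18 h alone was left out. The level difference was then 0.53, adjusted p = 0.0508, and the difference between the changes 0.415, adjusted p = 0.359. At 1 h the level difference also passed with only the 8 libraries compared (0.42, adjusted p = 3.76e-04). At 5 h the lower level of BMDM-Nur77-KO passed without its replicate 4 (-0.55, adjusted p = 0.0371), while without its replicate 1 the difference was -0.092, adjusted p = 0.73. Leaving out the 2 libraries was chosen after the data were seen.

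Slc39a14, which encodes ZIP14, a carrier of iron not bound to transferrin, and Steap4, a ferrireductase, peaked at 5 h. Slc39a14 was at 26.4 to 30.2 CPM at 0 h, 138 to 158 at 5 h and 17.6 to 21.6 at 18 h in BMDM-WT. In BMDM-Nur77-KO it was at 26.1 to 31.1, 101 to 200 and 19.5 to 26 CPM, and its 1 h levels of 27.9 to 32.3 CPM in both genotypes overlapped those of 0 h. All 5 h libraries lay above all others. The rise at 5 h was 5.37-fold in BMDM-WT and 5.44-fold in BMDM-Nur77-KO (edgeR adjusted p = 1.11e-16 and 9.73e-17). By 18 h BMDM-WT had fallen below its 0 h level (-0.48 ± 0.13, adjusted p = 0.00206). In BMDM-Nur77-KO the change at 18 h was -0.27 ± 0.13 (adjusted p = 0.0679), which passed without replicate 2 at 0 h (-0.32, adjusted p = 0.0476). The genotype intervals were -0.17 to 0.31 at 5 h and -0.002 to 0.52 at 18 h. Without the 2 libraries with the steepest GC trend the higher BMDM-Nur77-KO level passed at both times (0.23, adjusted p = 0.0318 and 0.35, adjusted p = 0.00426). At 5 h it did not pass without replicate 1 alone (0.23, adjusted p = 0.0813), nor at 18 h without replicate 4 alone (0.35, adjusted p = 0.0837).

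Steap4 was nearly silent outside 5 h. Its counts were 25, 17, 31 and 22 in BMDM-WT and 34, 24, 27 and 30 in BMDM-Nur77-KO at 5 h, and 0 to 3 in each of the other 24 libraries. These 5 h counts are 2.04 to 3.49 and 2.01 to 3.66 CPM, and the genotypes overlapped. In BMDM-WT the 95 counts at 5 h against 1 at 0 h gave a ratio of 165 (exact 95% interval 28.9 to 6572, counting error only). In BMDM-Nur77-KO, with none at 0 h, the level at 5 h was at least 12.2-fold higher than 3 counts per library would give. filterByExpr kept Steap4 only through its 5 h libraries, so the 5 h change is given with every gene of any count tested (18060). It passed in both genotypes (edgeR adjusted p = 1.19e-11 and 7.65e-12). With genes kept by filterByExpr (12215 tested), the genotypes at 5 h differed by 0.013 ± 0.27 on the log2 scale (edgeR adjusted p = 0.99).

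Slc25a37, which encodes mitoferrin 1, the importer of iron into mitochondria, rose with time under LPS, and at 1 h the BMDM-Nur77-KO level was the higher one. In BMDM-WT it was 35.1, 26.4, 21.5 and 22.2 CPM before LPS, 28.1, 28.6, 20.8 and 23.6 after 1 h, 45.5, 44.6, 42.1 and 60.4 after 5 h and 95.2, 82.8, 61.5 and 95.1 after 18 h. BMDM-Nur77-KO libraries were at 28.6, 34.7, 33.1 and 36.6 CPM before LPS, 46.1, 44.6, 48.2 and 48 after 1 h, 51.6, 44.9, 38.4 and 50.9 after 5 h and 86.8, 74.7, 82.4 and 70.3 after 18 h. The genotypes overlapped at 0, 5 and 18 h, and at 1 h all knockout libraries lay above all wild-type libraries. The difference at 1 h was 1.84-fold (log2 0.88 ± 0.15, edgeR adjusted p = 1.34e-04) and was kept under all alternatives and without any 1 library. The summed neutrophil markers at 1 h lay above those of BMDM-WT too, and their part in this difference was not tested. At 0 h it was 0.34 ± 0.15 (adjusted p = 0.137), which passed without BMDM-WT replicate 1 (0.50, adjusted p = 0.0246). The difference between the 1 h responses did not pass (interaction 0.55 ± 0.21, adjusted p = 0.433). In BMDM-WT the gene rose 1.83-fold at 5 h and 3.18-fold at 18 h, and in BMDM-Nur77-KO 1.4-fold and 2.36-fold (edgeR adjusted p = 5.61e-06, 2.03e-11, 0.00443 and 7.26e-09). The rise at 1 h in BMDM-Nur77-KO (0.49 ± 0.15, edgeR adjusted p = 0.0207) was lost without replicate 1 or 3 at 0 h or replicate 3 or 4 at 1 h (adjusted p = 0.0888, 0.0507, 0.0525 and 0.0516).

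Ireb2, the iron regulatory protein that iron-replete cells degrade, was highest at 5 h. In BMDM-WT it was at 58.2 to 84 CPM before LPS, 76.2 to 102 after 1 h, 103 to 126 after 5 h and 70.9 to 109.8 after 18 h. In BMDM-Nur77-KO it was at 68.4 to 109, 72.5 to 85.3, 101 to 147 and 79.7 to 108 CPM, and the genotypes overlapped at every time. In BMDM-WT it rose 1.66-fold at 5 h (0.73 ± 0.15, edgeR adjusted p = 5.86e-05) and fell from 5 to 18 h (-0.49 ± 0.15, adjusted p = 0.00411). In BMDM-Nur77-KO the rise at 5 h was 0.36 ± 0.15 (edgeR adjusted p = 0.0282). That call was lost without replicate 2 or 4 at 0 h or replicate 1 at 5 h (adjusted p = 0.0557, 0.138 and 0.161, the last with a log2 change of 0.23). It was also lost with the GC correction (0.13, adjusted p = 0.117), without the 2 libraries with the steepest GC trend (0.23, adjusted p = 0.142) and with only the libraries compared (adjusted p = 0.063). At 0 h the genotype difference was 0.38 ± 0.15 (adjusted p = 0.0872). It passed in DESeq2 (0.42, adjusted p = 0.0459), with only the libraries compared (adjusted p = 0.0477), without the 2 libraries (adjusted p = 0.0302), without BMDM-Nur77-KO replicate 4 (adjusted p = 0.0229) and without BMDM-WT replicate 2 (adjusted p = 0.0391). At 5 h it was 0.010 ± 0.15, and turned to -0.30, adjusted p = 0.00332 with the GC correction, where the response at 5 h also differed between the genotypes (-0.40, adjusted p = 0.0192). The change at 1 h in BMDM-WT (0.34 ± 0.15, adjusted p = 0.1) passed without replicate 2 at 0 h (adjusted p = 0.0415). The change from 5 to 18 h in BMDM-Nur77-KO (-0.31 ± 0.15, adjusted p = 0.0621) passed without replicate 4 at 5 h or replicate 4 at 18 h (adjusted p = 0.0365 and 0.0314), and was -0.17, adjusted p = 0.291 without replicate 1 at 5 h.

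**Figure D3:**
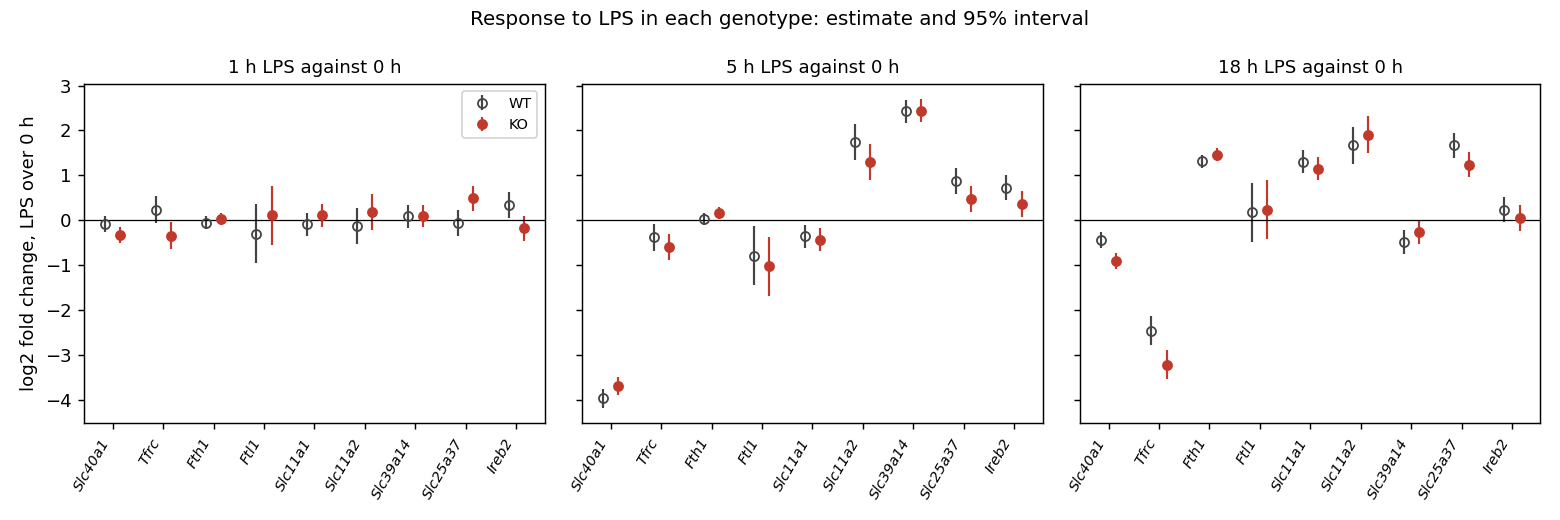
Log2 fold change of the 9 tested genes at 1, 5 and 18 h of LPS relative to 0 h, with 95% intervals, in open grey for BMDM-WT and red for BMDM-Nur77-KO. At 5 h Slc40a1 lies at -3.96 and -3.68 and Slc39a14 at 2.42 and 2.44, and at 18 h Tfrc is the lowest gene in both.

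Across the 9 genes few differences between the genotypes passed the test. At 0 h Tfrc alone was called (1 of 9, against 12.5% of all genes), and at 1 h Slc25a37 alone (1 of 9, against 6.47%). At 5 h Slc40a1 and Tfrc were called (2 of 9, against 23.8%), and at 18 h Slc40a1 alone (1 of 9, against 21.7%). The response to LPS differed between the genotypes for none of the 9 at 1 h (background 0.0626%) or 5 h (background 3.14%) and for Slc40a1 and Tfrc at 18 h (background 9.45%). At an unadjusted p under 0.05, 3 of 9 passed at 1 h and 0 at 5 h in edgeR, and DESeq2 called none at either time. The groups did not overlap for Tfrc and Fth1 at 0 h, Slc11a2 and Slc25a37 at 1 h, Tfrc at 5 h and Slc40a1 at 18 h, where 22.8%, 19.6%, 18.7% and 21.1% of all tested genes had no overlap.

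**Figure D4:**
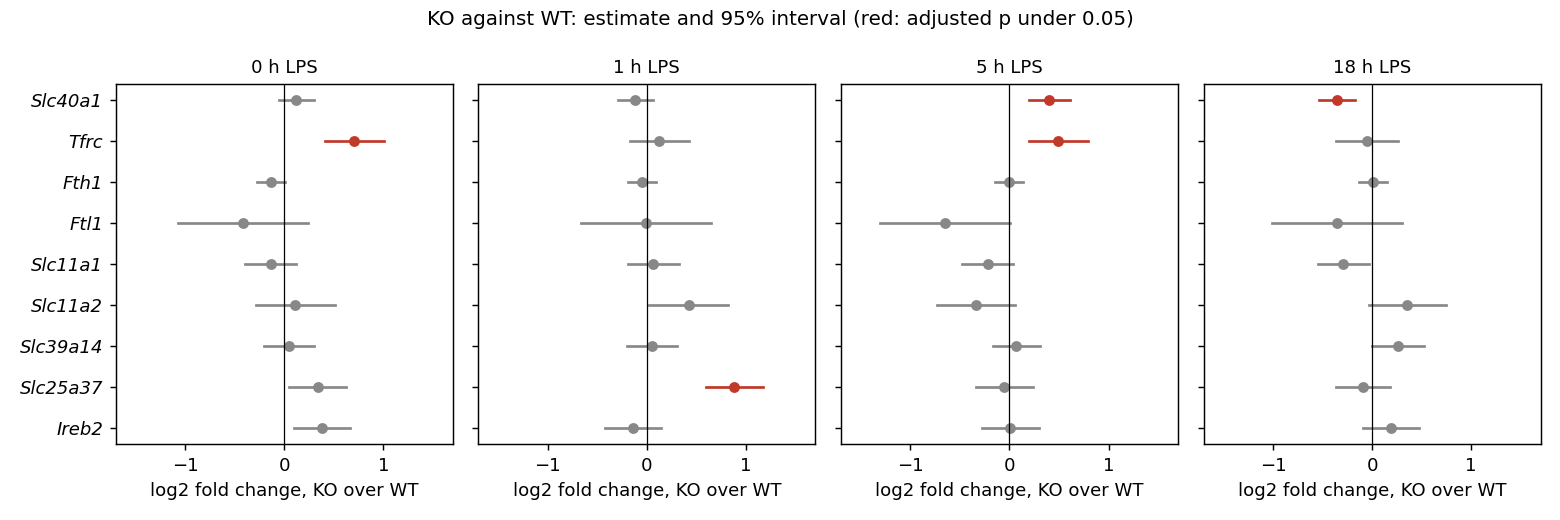
Log2 fold change of BMDM-Nur77-KO over BMDM-WT for the 9 tested genes at each time, with 95% intervals, in red where the adjusted p was under 0.05. The red points are Tfrc at 0 and 5 h, Slc25a37 at 1 h and Slc40a1 at 5 h (to the right of 0) and at 18 h (to the left).

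A list of 49 other genes of iron metabolism, drawn up with earlier results of these data known, had 41 tested members. Under the alternatives only the number of these genes called was recorded, so calls of single genes below are those of the main fit. In BMDM-WT, 6 of 41 (14.6%) changed at 1 h (5 rose), 32 (78.0%) at 5 h (12 rose and 20 fell) and 31 (75.6%) at 18 h (14 rose and 17 fell), beside the 20.2%, 69.8% and 66.5% of all genes. The median log2 fold change at 5 h was -0.23 against -0.13 over all genes. Cp, the ferroxidase ceruloplasmin that works with ferroportin, rose from 13, 13, 14.3 and 13.3 CPM at 0 h to 317, 288, 299 and 368 at 5 h (4.57 ± 0.15, edgeR adjusted p = 4.99e-22), while Slc40a1 was at its lowest. Lcn2, which binds bacterial siderophores, rose by 6.02 ± 0.21 at 18 h (edgeR adjusted p = 2.47e-21). Cd163, the scavenger receptor for hemoglobin bound to haptoglobin, fell from 15.1, 11.3, 13.1 and 13.2 CPM at 0 h to 1.61, 2.76, 2.02 and 2.13 at 5 h (-2.62 ± 0.18, edgeR adjusted p = 9.51e-14) and to at most 0.359 CPM in every 18 h library of either genotype. Bach1 and Nfe2l2, regulators of heme and oxidative stress genes, rose at 1 h (0.66 ± 0.083 and 0.70 ± 0.10, edgeR adjusted p = 1.90e-07 and 1.80e-06).

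Between the genotypes, 5, 3, 7 and 10 of the 41 differed in order of time, shares of 12.2%, 7.32%, 17.1% and 24.4% beside the 12.5%, 6.47%, 23.8% and 21.7% of all genes. Alas1, the rate-limiting enzyme of heme synthesis outside red blood cells, was 311, 306, 337 and 337 CPM in BMDM-Nur77-KO and 181, 198, 194 and 224 in BMDM-WT at 0 h, without overlap (0.70 ± 0.075, edgeR adjusted p = 7.28e-08), and was higher at 1 h as well (0.72 ± 0.075, adjusted p = 3.86e-08). The porphyrin transporter Abcb6 had a lower BMDM-Nur77-KO level after 5 h (-0.87 ± 0.18, edgeR adjusted p = 7.54e-04) and after 18 h (-0.62 ± 0.17, adjusted p = 0.00734). With only the libraries compared, no gene of this list was called at 5 h, so the 5 h call of Abcb6 was lost there. Hfe, whose product binds the transferrin receptor, was 14, 17, 13.4 and 13.1 CPM in BMDM-Nur77-KO and 32, 21.6, 24.1 and 25.6 in BMDM-WT at 18 h, without overlap (-0.85 ± 0.12, edgeR adjusted p = 4.05e-06). Hamp, which encodes hepcidin, the hormone that makes cells degrade ferroportin, was very low throughout. It had 11, 10, 14 and 12 counts in the BMDM-Nur77-KO libraries and 2, 0, 1 and 4 in the BMDM-WT libraries at 18 h (2.54 ± 0.52, edgeR adjusted p = 0.00102) and no count at 0 h in either.

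The promoter table from RefSeq (GRCm38, 250 bases before to 50 after the start) held entries for 6 of the 10 genes, namely Slc11a1, Steap4, Ftl1, Ireb2, Tfrc and Fth1. The letters GGNNNTTCC, an NF-kB motif read on both strands, occurred in Steap4, Slc11a1 and 1 of the 2 Tfrc entries, and in 18.5% of all promoters and 25.9% of those of tested genes. The Nur77 response element AAAGGTCA (1.51% of all promoters and 1.12% of those of tested genes), the AP-1 motif TGANTCA (7.81% and 6.34%) and the antioxidant element TGACNNNGC (12.4% and 17.2%) had no match in the promoter entries of these 6 genes. Sequence outside these entries was not searched.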

How the data were processed

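RNA was taken from BMDM-WT and BMDM-Nur77-KO cells at 4 times of LPS treatment, with 4 libraries per group. The authors made strand-specific mRNA libraries, aligned the reads to mm10 with HISAT2 2.1.0, kept those above a mapping quality limit and counted them over RefSeq transcripts with HOMER, without normalization; whether the counting used strand is not given in the sources used here. The deposited values are expected counts in steps of 0.5 (28.6% were not whole) and were rounded to whole numbers. Of 42361 transcripts, 42198 were named through RefSeq and 70 through GENCODE, and the 93 unnamed, 0.233% to 1.37% of the tags of a library, were left out. The transcript with the highest mean count stood for its gene. Kept tags per library were 8742362 to 15780926, which limits the precision of low genes such as Steap4.

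Genes with a mean RPKM above 1 in at least 1 group (11186) were tested with edgeR 4.0.16 in R 4.3.3 (TMM scaling, quasi-likelihood F test, 1 mean per group, all 32 libraries), with Benjamini-Hochberg adjustment, a limit of 0.05 on the adjusted p and 95% intervals of 1.96 SE. The 15 comparisons were genotype at each time, LPS against 0 h and 18 h against 5 h within genotype, and the difference between the genotypes' responses. The script was tested on simulated data with the same spread for every gene and no GC trend, so that test does not bear on libraries with a steep GC trend. Alternatives were DESeq2 1.42.0, its size factors in edgeR, other filters on low values, a limit on the fold, summed transcripts, a replicate block, only the libraries compared, each library left out, and, chosen after the data were seen, counts corrected for the trend on GC content and leaving out the 2 libraries with the steepest GC trend. The GC trend of a library was fitted against the mean of all libraries, so the correction also takes out differences between groups that go with GC content. All 10 genes are named, with the 3 genes most like Slc40a1, Tfrc and Fth1 and other iron genes taken by the size of their change. The genes, lists and markers were chosen with earlier results of these data known.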

Additional observations from a re-analysis of the deposited data

Results flagged for a closer look

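Of 74 gene and group combinations tested for a library far from the other 3 by Dixon's test, 10 were found, and chance alone flags about 1 in 20. BMDM-Nur77-KO replicate 4 at 18 h was far below the others of its group in Ftl1 (1913 CPM), Slc11a1 (336 CPM), Slc11a2 (134 CPM) and Slc39a14 (19.5 CPM). BMDM-WT replicate 3 at 18 h was far below in Ftl1 (4595 CPM), Slc11a1 (453 CPM) and Slc11a2 (156 CPM), and far above in Ireb2 (109.8 CPM). At 1 h, BMDM-WT replicate 1 was far above in Ftl1 (4522 CPM), and BMDM-Nur77-KO replicate 3 was far below in Slc40a1 (199 CPM). These are levels after TMM scaling. The change from 0 to 18 h of LPS differed between the genotypes by -0.47 in Slc40a1 and by -0.76 in Tfrc on the log2 scale (interaction in edgeR, adjusted p = 0.0147 and 0.0227), and the calls that depend on a library or setting are given with these genes above.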

How the results depend on the processing

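Of 55 calls over the 9 tested genes, 40 were kept under every alternative other than the limit on the fold, and 15 were lost under at least 1. The share of all tested genes called was recorded for the main fit only. The counts in this section therefore do not show whether the iron genes moved apart from the other genes. DESeq2 called 2 of 9 for genotype at 0 h and 5 for LPS at 5 h in BMDM-WT, where its size factors in edgeR also gave 5 and moved the median of all genes from -0.13 to -0.032 (log2), and 11 other iron genes for genotype at 5 h. With only the libraries compared, the counts were 3, 2 and 1 for genotype at 0, 1 and 5 h (10, 9 and 0 of the other iron genes), 2 for LPS at 1 h in BMDM-WT, 5 for LPS at 5 h in BMDM-Nur77-KO and 1 for the interaction at 18 h. With a limit of 0.58 (genotype) or 1 (LPS) on the log2 fold change, they were 0 for genotype at 5 and 18 h, LPS at 1 h in BMDM-Nur77-KO and the interaction at 18 h, 3 (BMDM-WT) and 4 (BMDM-Nur77-KO) for LPS at 5 h, and 5 for 18 h against 5 h in BMDM-WT, and for the other iron genes 2, 2 and 5 for genotype at 0, 5 and 18 h and 0, 8 and 15 for LPS at 1, 5 and 18 h in BMDM-WT. The GC correction gave 1 and 2 for genotype at 5 and 18 h, 1 for LPS at 1 h in BMDM-Nur77-KO, 1 for the interaction at 5 h and 1 at 18 h, and 6 other iron genes for genotype at 1 h. The gene it called for genotype at 5 h was Ireb2, while the main calls there, Slc40a1 and Tfrc, were lost. Without the 2 libraries with the steepest GC trend, there were 3, 2 and 3 for genotype at 0, 1 and 18 h, 1 for LPS at 1 h in BMDM-WT and 13 other iron genes for genotype at 0 h. Leaving out 1 library gave 1 to 2 for genotype at 0 h, 1 to 4 at 5 h, 0 to 1 (BMDM-WT) and 0 to 3 (BMDM-Nur77-KO) for LPS at 1 h, and 1 to 2 for the interaction at 18 h, and 2 to 5, 3 to 12 and 2 to 6 other iron genes for genotype at 0 and 5 h and LPS at 1 h in BMDM-WT.

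A check of replicate numbers showed no pairing of the samples: correlations of same-numbered deviations ran from -0.70 to 0.47, and in none of 12 comparisons were all 4 above 0.1, nor did every sample correlate best with its own number. The GC trends of single libraries also enter these deviations, so the check cannot tell whether a number marks the same animal. With the replicate block, the calls of LPS at 5 h were lost for Ftl1 in BMDM-WT (adjusted p = 0.0524) and Fth1 in BMDM-Nur77-KO (adjusted p = 0.0585). Within genotype the block left 1 of 9 at the interaction at 18 h and 3 other iron genes for LPS at 1 h in BMDM-WT.

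Changes of sign were among differences that were small and not called in the main fit. For Fth1 the genotype difference became 0.014 at 5 h with DESeq2 or its size factors, 0.17 with the GC correction, and -0.0056 and -0.046 at 18 h with only the libraries compared and without the 2 libraries. The GC correction also gave -0.016 for Slc40a1 and 0.0038 for Slc11a1 at 0 h and -0.30 for Ireb2 at 5 h, which passed (edgeR adjusted p = 0.00332). For LPS at 1 h it gave 0.084 for Fth1 and 0.081 for Slc11a1 in BMDM-WT and 0.013 for Ireb2 in BMDM-Nur77-KO. Without the 2 libraries, Ireb2 was at -0.12 for genotype at 5 h and -0.017 for LPS at 18 h in BMDM-Nur77-KO. With 1 library left out, the genotype difference ran from -0.056 to 0.040 for Ftl1 at 1 h, and at 5 h from -0.10 to 0.036 for Fth1, -0.12 to 0.071 for Ireb2, -0.11 to 0.077 for Slc25a37 and -0.066 to 0.23 for Slc39a14. At 18 h it ran from -0.046 to 0.030 for Fth1 and -0.16 to 0.18 for Tfrc. LPS at 1 h ran from -0.14 to 0.11 for Slc25a37 in BMDM-WT and -0.0052 to 0.056 for Fth1 in BMDM-Nur77-KO, and LPS at 18 h from -0.059 to 0.16 for Ireb2 in BMDM-Nur77-KO. The cause of these changes was not tested. Steap4, with 0 to 34 counts per library, is limited by depth.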

Other observations

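Among other groups of iron genes, those of heme uptake, breakdown and export had no called rise at 5 h of LPS in BMDM-WT: 7 of 9 tested fell, where 39.1% of all tested genes fell and 69.8% changed in either direction, and the median log2 fold change was -0.86, against -0.13 over all genes (edgeR, adjusted p under 0.05 for each call). At 18 h 4 of these 9 rose and 4 fell, with a median of 0.26. Genes of mitochondrial iron, iron-sulfur clusters and heme synthesis were called in both directions, with 4 up and 6 down of 13 at 5 h and again at 18 h. Of the 8 genes of iron sensing and ferritin turnover, 3 rose and 3 fell at 5 h. Of 5 tested genes of hepcidin, ferroxidases and transferrin 2 rose and 2 fell, and of 6 tested genes of other uptake, reduction and lysosomal release 3 rose and 2 fell at that time. At 18 h 66.5% of all tested genes had changed. None of these lists was tested as a set, and counts over so few genes do not set them apart from all genes.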
